A study of Mus musculus with 24 samples.

Results

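Taurochenodeoxycholic acid (tCDCA), a single bile acid, was compared with an extract labelled Asbt-/- CME(-) for its effect on gene expression in pieces of mouse ileum. The libraries were chosen by their titles: tCDCA replicates 1 to 4 against Asbt-/- CME(-) replicates 1, 2 and 4, which makes 7 of the 24 libraries in the series and 7 of the 21 that were used. Ileal fragments came from wild-type male C57BL/6J mice that had been starved for 4 h, and were cultured for 8 h with the additive in all groups. The deletion of Asbt, the bile acid uptake carrier encoded by Slc10a2, belongs to the mouse that gave the extract, not to the treated tissue. The labels call the additive a silc extract and do not spell out CME, and 1 of the used Asbt-/- CME(-) libraries, replicate 2, carries CAM(-) in its treatment label, so that its title set its group. A dose of 200 µM is labelled for tCDCA replicates 2 to 4 and for Asbt-/- CME(-) replicates 2 and 4, and no dose is labelled for replicate 1 of either group. What makes up the extract is not given in the sources used here. Replicates 2 and 4 of the extract carry different extract codes in the labels, and nothing there says whether fragments of a group came from separate mice, so that the p-values cover only how far these libraries vary, and part of that variation may be technical.

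The other groups of the series served as background: the solvent DMSO at 0.6% (replicates 2 to 4), the WT CME(-) extract (4 libraries), the Asbt-/- CME(+) extract (4 libraries) and the WT CME(+) extract (3 libraries), all on wild-type ileum. The protocol names extracts with and without depletion of bile acids but does not say which sign stands for which, and a concentration is labelled only for CME(-). Per the labels, DMSO replicate 1 was removed for another DMSO concentration (0.5%), and poor mapping removed Asbt-/- CME(-) replicate 3 as well as 1 library of WT CME(+).

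Bile acids are made in the liver, conjugated to taurine or glycine, secreted into the gut and taken back up by enterocytes of the ileum. Inside these cells they bind FXR, a nuclear receptor that switches on Fgf15, a hormone gene whose product slows bile acid synthesis in the liver, and the exporter genes Slc51a and Slc51b. FXR activity in the ileum is also known to lower Slc10a2, the uptake carrier. Chenodeoxycholic acid and its taurine conjugate are among the strong natural FXR ligands, and at high concentrations many bile acids act on cells as detergents too.

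The 7 libraries held 2755149 to 5602265 counts each. Replicate 1 of both groups came from a first run and the other replicates from a second, as given by the prefix of the column names, and the run stood as a term in the model. The share of counts from mitochondrial rRNA was 7.69 and 8.29% in the 2 libraries of run 1. In run 2 it was 33.14, 5.29 and 28.14% with tCDCA (replicates 2 to 4) and 27.41 and 24.6% with the extract, so that tCDCA replicate 3 stood apart. A second abundant feature, ENSMUSG00000119584, which has no symbol here, held 3.21 to 14.46% of counts in the 7 libraries. Leaving out the rRNAs and this feature together gave 14 called genes in place of 15, and neither was left out alone.

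Both additives raised Fgf15 over the solvent (tCDCA by 4.98 ± 0.38 on the log2 scale, adjusted p = 2.89e-07, and the extract by 5.21 ± 0.39, adjusted p = 8.99e-07), and no difference between them was called. Fgf15 (ENSMUSG00000031073) was at 265, 174, 272 and 249 CPM (counts scaled to a common library size) in tCDCA replicates 1 to 4. With the Asbt-/- CME(-) extract it was at 318, 329 and 216 CPM in replicates 1, 2 and 4, and with DMSO at 5.94 to 7.95. The 2 treated groups overlapped, and each lay far above the solvent. The difference, tCDCA minus extract, was -0.23 ± 0.28 on the log2 scale (SE; 95% interval -0.81 to 0.36; edgeR adjusted p = 0.909), which does not show that the levels were the same.

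Slc10a2 (ENSMUSG00000023073) was at 95, 168, 104 and 162 CPM with tCDCA and at 96.6, 333 and 212 with the extract. With DMSO it was at 405 to 658, in libraries that were all of run 2. In run 1 both additives gave nearly the same level, and in run 2 the tCDCA libraries all lay below those of the extract. The difference of -0.66 ± 0.22 did not pass the threshold (adjusted p = 0.313). Within run 2 alone it was -0.92 ± 0.23 (adjusted p = 0.0525), and the single libraries of run 1 differed by -0.02.

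For the exporter subunit genes and Fabp6, the ileal bile acid binding protein gene, no difference was called and the groups overlapped. Slc51b was at 465, 307, 479 and 428 CPM with tCDCA and at 625, 389 and 312 with the extract (0.02 ± 0.19, interval -0.37 to 0.41), above 171 to 247 with DMSO. Slc51a was at 251, 233, 414 and 379 against 409, 359 and 237 CPM (-0.12 ± 0.21), with DMSO at 182 to 256. Fabp6 was at 7550, 2620, 6670 and 3210 against 8250, 3740 and 3770 CPM (0.06 ± 0.22), with DMSO, all of run 2, at 2980 to 4250. Neither gene was called against DMSO with tCDCA or the extract (Slc51a 0.53 ± 0.21 and 0.64 ± 0.23, Fabp6 0.13 ± 0.22 and 0.06 ± 0.24). Between tCDCA and the extract the differences of Slc51b, Slc51a and Fabp6 were small, and their sign turned with the processing. Nr0b2, another FXR target, never exceeded 4 counts in a library and did not enter the test. Of 9 tested FXR targets of the ileum none was called, and their median difference was -0.12. At an unadjusted p under 0.05, 1 was higher and 2 were lower (4.54 and 3.76% of all genes). The higher one was Sqstm1, an autophagy receptor gene (0.42 ± 0.15), and the lower ones were Slc10a2 and Abcc2.

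**Figure D1:**
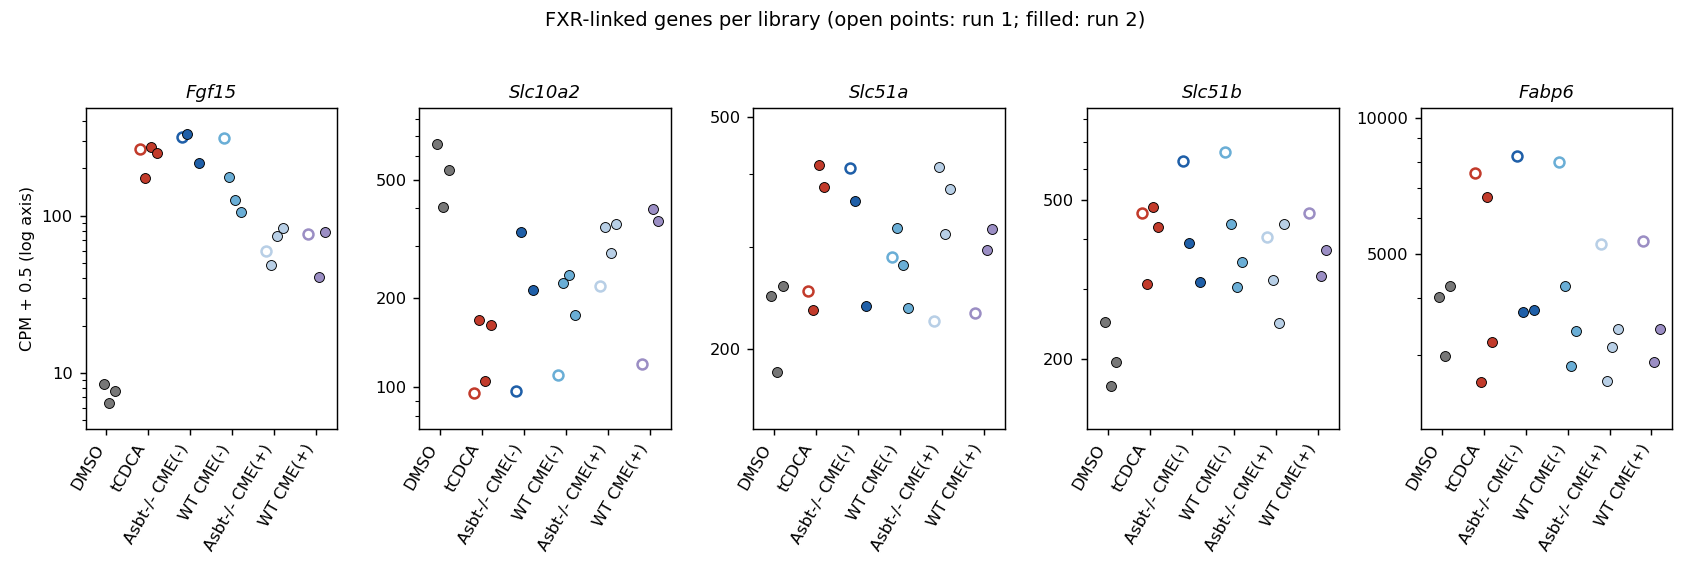
Level of 5 FXR-linked genes in each used library (CPM + 0.5 on a log axis) by additive, with open points for run 1 and filled points for run 2. Fgf15 lay at 174 to 272 CPM with tCDCA and at 216 to 329 with Asbt-/- CME(-), against 5.94 to 7.95 with DMSO, and the tCDCA libraries of run 2 had less Slc10a2 than the Asbt-/- CME(-) libraries of run 2.

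Beyond these genes, 15 of 13125 genes tested (0.114%) differed between tCDCA and the extract at an adjusted p under 0.05 in edgeR's quasi-likelihood test with Benjamini-Hochberg adjustment. With tCDCA 6 were higher (0.0457%) and 9 lower (0.0686%), and 10 differed at least 2-fold. At an unadjusted p under 0.05 there were 1090 genes (8.3%), 596 higher (4.54%) and 494 lower (3.76%). The number of calls moved with single libraries: it was 0 without Asbt-/- CME(-) replicate 2, 2 without replicate 4 and 58 without replicate 1, and 54, 6, 4 and 4 without tCDCA replicates 1, 2, 3 and 4. With the replicate number as a block in place of the run, 4 genes were called, all of them among the 15 (Acta1, Dbp, Naaladl1 and Prlr). All 15 kept their direction in each of these fits.

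Among the 6 genes that rose were a cytokine, a growth factor and a cytokine receptor. Lif (ENSMUSG00000034394) encodes leukaemia inhibitory factor, a cytokine of the interleukin-6 family. It was at 24.2, 46.2, 59.5 and 27 CPM with tCDCA and at 17.8, 7.3 and 10.6 with the extract, against 5.26 to 10.5 with DMSO. Every tCDCA library lay above every extract library, and those of the extract reached into the DMSO range. Lif was 3.08-fold higher with tCDCA (1.62 ± 0.32, adjusted p = 0.0282), and 2.29 ± 0.37 in run 2 alone against 0.44 between the single libraries of run 1.

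The stretch of DNA just before the Lif start is shown because Lif had the largest rise of the called genes and Fosl1, a subunit of the AP-1 transcription factor, lay on the same side (0.7 ± 0.25, unadjusted p = 0.00828, not called). Fosl1 was picked by its small p from 15 immediate early genes, of which 10 were higher and 5 lower with tCDCA. The 250 bases before the start (RefSeq, GRCm38.p6, chr11:4257318-4257567, plus strand) read 5′ to 3′, with the AP-1 motif TGANTCA in capitals, at -228 to -222 from the start.
Lif: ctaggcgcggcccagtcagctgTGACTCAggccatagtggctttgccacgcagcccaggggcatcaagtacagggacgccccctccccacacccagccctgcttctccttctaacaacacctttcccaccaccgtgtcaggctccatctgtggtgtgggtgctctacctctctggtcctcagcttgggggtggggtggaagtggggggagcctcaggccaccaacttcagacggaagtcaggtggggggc
This motif, searched on both strands, is in 6.75% of 32851 promoter windows of the same length, so a match here is a description only. Among the called genes it was also found for Tmigd1, Prlr and Slc2a9, all of which were lower with tCDCA.

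Ereg (ENSMUSG00000029377) encodes epiregulin, a ligand of the epidermal growth factor (EGF) receptor made in injured and regenerating epithelium. Its level was 139, 232, 183 and 202 CPM with tCDCA and 124, 99.6 and 89 with the extract. Again no library overlapped, and DMSO (73.1 to 130 CPM) lay with the extract. Ereg rose 1.86-fold (0.90 ± 0.19, adjusted p = 0.0393).

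Il1rl1 (ENSMUSG00000026069) is the gene of ST2, the receptor for the alarm cytokine interleukin-33. It was at 68.1, 74.3, 65.5 and 92.1 CPM with tCDCA and at 58.6, 32.3 and 24.3 with the extract. The groups did not overlap, although the extract library of run 1 came close. The rise was 2.06-fold (1.04 ± 0.23, adjusted p = 0.0481).

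Pf4 (ENSMUSG00000029373) encodes platelet factor 4, a chemokine stored in platelets. It was at 144, 94.3, 112 and 78.2 CPM with tCDCA and at 121, 28.8 and 46.3 with the extract, so that the groups were apart only within each run (0.99 ± 0.21, 1.99-fold, adjusted p = 0.0311). Ccdc71l (ENSMUSG00000090946), a gene of a coiled-coil protein, was at 183, 113, 224 and 143 CPM against 139, 51.1 and 75.3 (1.04 ± 0.21, 2.05-fold, adjusted p = 0.0311). Sertad1 (ENSMUSG00000008384), the gene of a transcriptional co-regulator of the cell cycle, was at 71.2, 94.3, 97.1 and 106 CPM against 55.7, 53.8 and 45.5, with no overlap (0.81 ± 0.17, 1.75-fold, adjusted p = 0.0403).

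The 9 genes that were lower included a clock output factor, a muscle actin and genes of sugar and urate handling. Dbp (ENSMUSG00000059824) encodes a transcription factor of the PAR family that binds the D-box and is driven by the circadian clock. It was at 1.78, 15.6, 10.7 and 8.8 CPM with tCDCA and at 6.84, 44.6 and 36.5 with the extract. Both groups were lowest in run 1, and tCDCA was lower within each run. Dbp fell 3.4-fold (-1.77 ± 0.29, adjusted p = 0.00353), and with 16 of 19 alternatives it was called more often than any other of the named genes.

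Acta1 (ENSMUSG00000031972), the skeletal muscle alpha-actin gene, was at 2.53, 2.71, 9.66 and 8.48 CPM with tCDCA and at 5.67, 28.4 and 30.6 with the extract. The tCDCA libraries lay below those of the extract within each run. DMSO was at 30.4 to 44 in run 2, and the removed DMSO library of run 1 was at 16.4. Acta1 fell 3.55-fold (-1.83 ± 0.31, adjusted p = 0.00683). The smooth muscle actin gene Acta2, of the same family, was at -0.16 ± 0.18 (adjusted p = 0.896), and Actg2 at 0.04 ± 0.21, and how reads shared by actin genes were counted is not given in the sources used here.

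G6pc (ENSMUSG00000078650) encodes the catalytic subunit of glucose-6-phosphatase, the last step in the release of free glucose. It fell outside the rule for named genes because of its low level and is given here because it was called. Its raw counts were 0, 3, 2 and 0 in tCDCA replicates 1 to 4 and 5, 15 and 18 in the extract libraries. With DMSO they were 33 to 52 in run 2, and 0 in the removed library of run 1. Over each group the counts summed to 5 with tCDCA and 38 with the extract, a 12.4-fold ratio after scaling. Its exact 95% interval of 4.85 to 40.2 covers counting error only. The fitted value of -3.84 ± 0.78 (adjusted p = 0.0289) depends on how counts near 0 are treated.

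Of the 15 called genes 13 had a promoter in the RefSeq table, and those of G6pc and Acta1 are shown because they held the rarest motifs found. The G6pc window (GRCm38.p6, chr11:101367466-101367715, plus strand) holds the D-box TTACGTAA, the letters that Dbp and its relatives bind, at -162 to -155, in capitals, and at -138 to -131 the ATF4 composite motif TTGCATCA. The Acta1 window (GRCm38.p6, chr8:123894776-123895025, minus strand) holds a CArG box, the motif of serum response factor, at -73 to -64, in capitals.
G6pc: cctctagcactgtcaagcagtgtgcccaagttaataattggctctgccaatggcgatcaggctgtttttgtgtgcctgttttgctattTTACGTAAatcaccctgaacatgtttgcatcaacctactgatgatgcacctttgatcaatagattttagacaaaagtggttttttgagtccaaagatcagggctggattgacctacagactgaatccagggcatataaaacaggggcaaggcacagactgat
Acta1: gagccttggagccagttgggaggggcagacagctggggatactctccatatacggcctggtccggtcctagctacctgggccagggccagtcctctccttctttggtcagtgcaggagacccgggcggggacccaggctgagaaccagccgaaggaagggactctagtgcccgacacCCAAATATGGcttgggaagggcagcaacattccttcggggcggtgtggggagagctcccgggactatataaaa
On both strands the D-box was in 0.113% of all windows, the ATF4 composite motif in 0.791% and the CArG box in 1.47%. These matches were picked as the rarest from a search of several motifs, so they are a description only. Whether Dbp or any other factor binds there was not tested. The IR-1 inverted repeat of FXR (0.0335% of windows), the NF-kB motif (0.356%) and the E-box CACGTG (6.02%) were not in the windows of the called genes. Ereg and Naaladl1 had no window to search. At such shares few or no matches would be met among 13 genes in any case, so these absences are a description only.

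Slc2a9 (ENSMUSG00000005107) encodes a urate carrier of the glucose transporter family. It was at 3.72, 4.07, 7.05 and 5.34 CPM with tCDCA and at 8.6, 13.5 and 18.8 with the extract. No tCDCA library reached the lowest extract library. The fall was 2.73-fold (-1.45 ± 0.31, adjusted p = 0.0393).

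Prlr (ENSMUSG00000005268), the prolactin receptor gene, was at 18.6, 22.7, 15.7 and 20.4 CPM against 23.1, 46.5 and 68.6, with no overlap but only a small gap to the extract library of run 1. It fell 2.28-fold (-1.19 ± 0.22, adjusted p = 0.0156). Prr15 (ENSMUSG00000045725), a proline-rich protein gene, was at 9.66, 10.9, 14.4 and 23.2 CPM against 20.5, 51.1 and 29, and fell 2.38-fold (-1.25 ± 0.25, adjusted p = 0.0289).

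Naaladl1 and Sectm1b, which encode membrane proteins, fell too. Naaladl1 (ENSMUSG00000054999), which encodes an ileal peptidase, was at 20.2, 23.4, 30.8 and 23.6 CPM against 28.5, 74.2 and 61.6 (-1.13 ± 0.22, 2.18-fold, adjusted p = 0.0282). Sectm1b (ENSMUSG00000039364), a gene of a secreted and transmembrane protein, was at 14.6, 43.1, 34.5 and 33.3 CPM against 20.3, 95.3 and 72.5 (-0.99 ± 0.21, 1.99-fold, adjusted p = 0.0311). In these pairs the lowest values of both groups were those of run 1.

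Tmigd1 (ENSMUSG00000020839), an epithelial adhesion molecule gene, was at 388, 194, 200 and 227 CPM with tCDCA and at 392, 556 and 388 with the extract, so that the run 1 libraries had nearly equal levels while those of run 2 were apart. The pooled value was -0.85 ± 0.19 (1.81-fold, adjusted p = 0.0425).

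**Figure D2:**
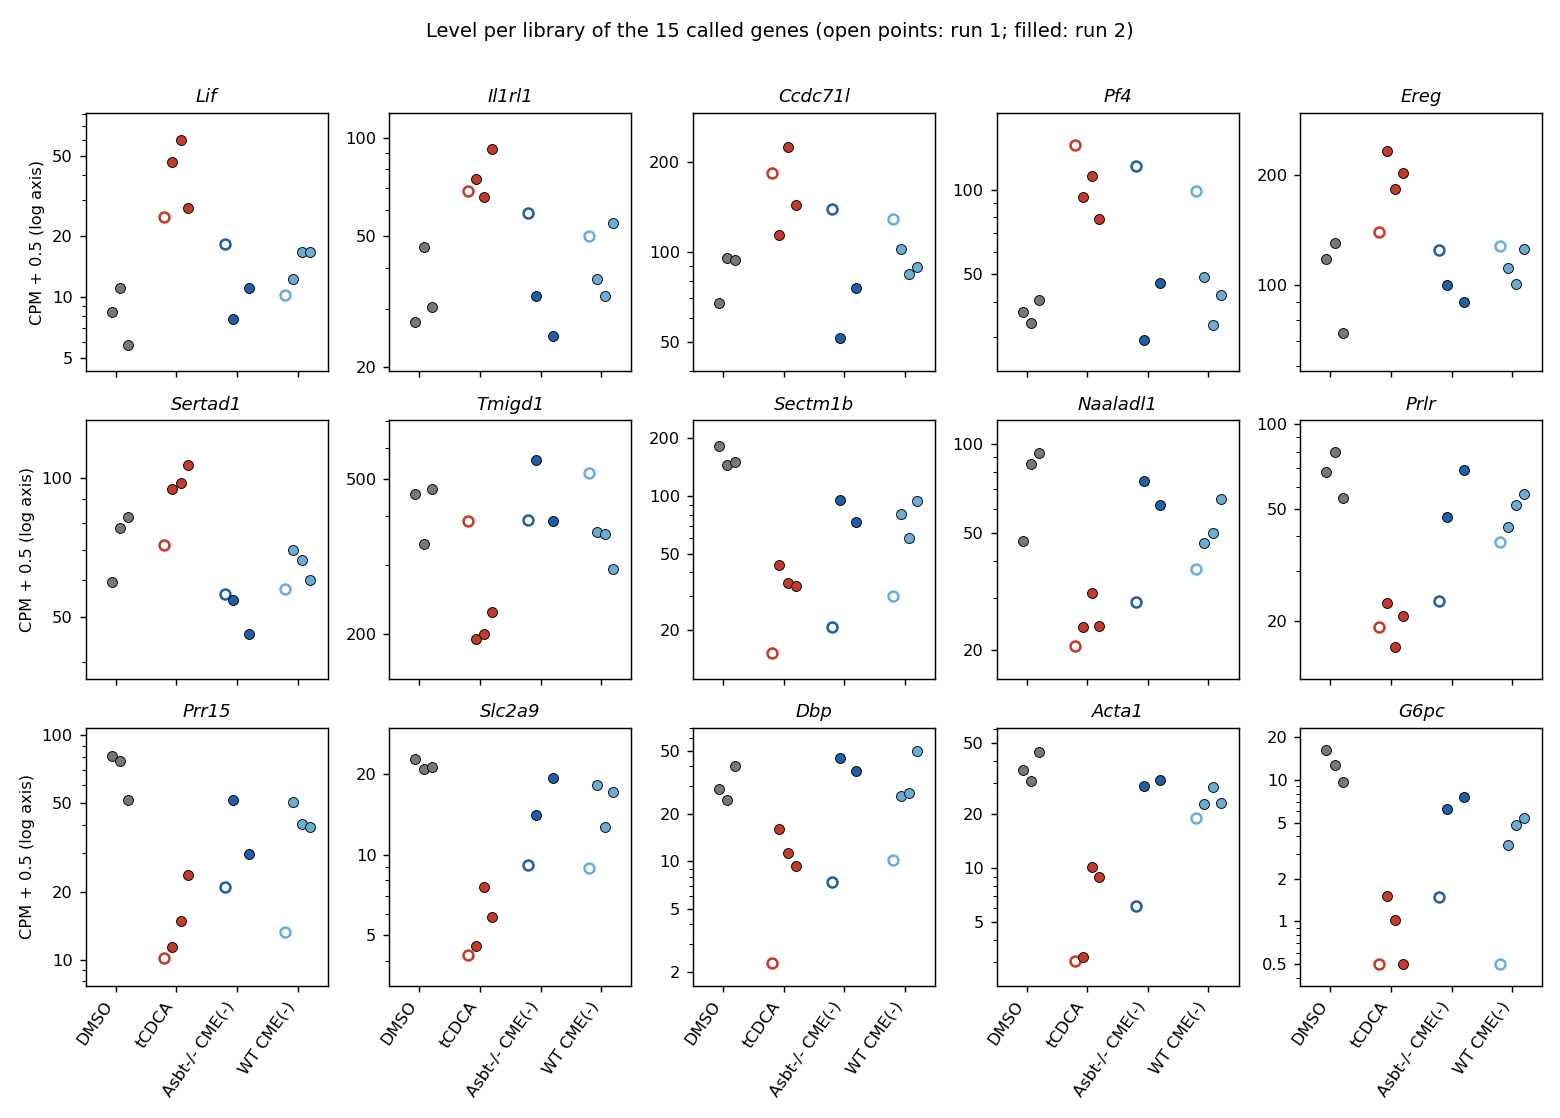
Level of the 15 called genes in each library (CPM + 0.5 on a log axis) by additive, with open points for run 1 and filled points for run 2. Over all 7 compared libraries Lif, Il1rl1, Ereg and Sertad1 did not overlap above and Prlr and Slc2a9 below, and within run 2 all 15 genes were apart.

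Over the 7 libraries 4 of the 6 higher genes and 2 of the 9 lower ones showed no overlap. Among all genes tested, the tCDCA libraries all lay above those of the extract for 2.45% and all below for 2.08%. Within run 2, 3 tCDCA against 2 extract libraries, all 15 were apart, against 13.4% of all genes above and 12.1% below. The genes were called from a fit that holds these same libraries, so their separation is a description and supports nothing further.

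Set beside the solvent, the called genes lay farther from DMSO with tCDCA than with the extract, apart from Sertad1. Both comparisons share the same 3 DMSO libraries, all from run 2. The 15 genes were chosen for a difference between these same tCDCA and extract libraries. That choice favours genes for which 1 of the groups lies far from DMSO, so the counts are a description. Against DMSO 14 of the 15 were called with tCDCA (746 of all genes, 5.68%) and 1, Sectm1b, with the extract (125 of all genes, 0.952%). Lif was at 2.34 with tCDCA and 0.72 with the extract on the log2 scale, Acta1 at -2.39 and -0.56, Prr15 at -2.02 and -0.76, and Prlr at -1.59 and -0.4. For Dbp the values were -1.5 and 0.27, for Il1rl1 1.05 and 0, for Ereg 0.79 and -0.11, and for Tmigd1 -0.89 and -0.04. Sectm1b was lower than the solvent with both, at -1.99 (adjusted p = 4.76e-08) and -1 (adjusted p = 0.0199). Sertad1 was at 0.36 (adjusted p = 0.25) and -0.44 (adjusted p = 0.31), neither of which passed the threshold.

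**Figure D3:**
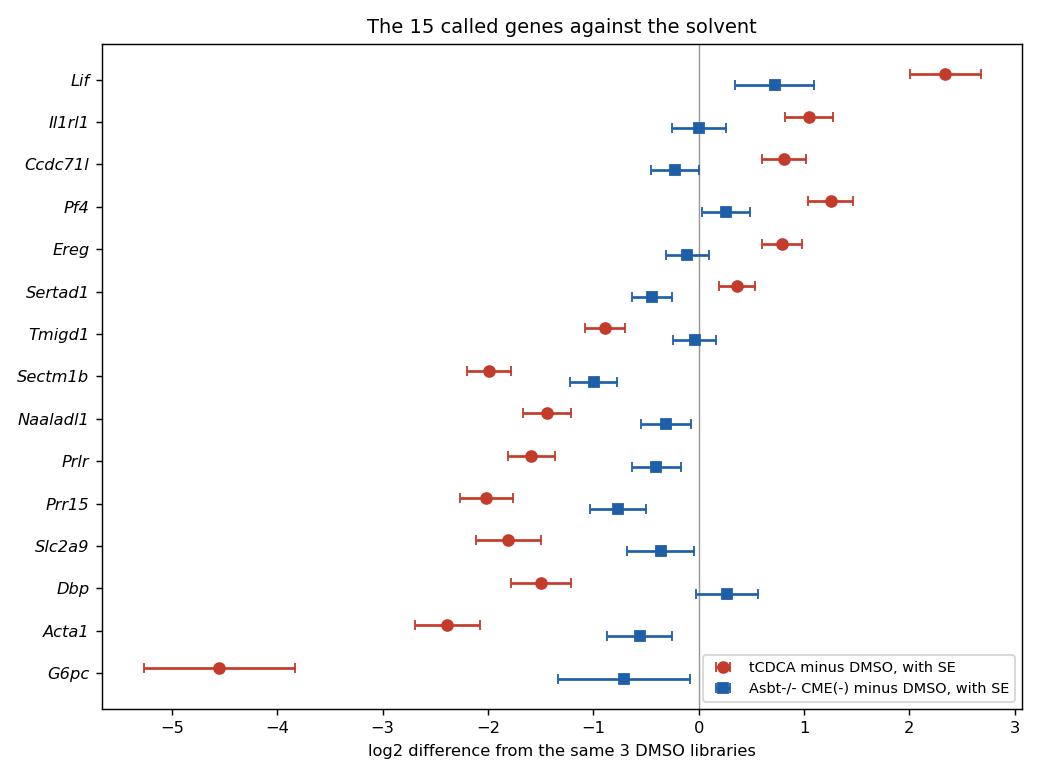
Log2 difference from DMSO of the 15 called genes with tCDCA (circles) and with the Asbt-/- CME(-) extract (squares), with SE bars, from the fit to 21 libraries. Lif was at 2.34 and 0.72 and Acta1 at -2.39 and -0.56, and only Sectm1b was called against DMSO with the extract. The genes were chosen for a difference between these same 2 groups.

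The same genes were followed in the other extracts. Between the Asbt-/- CME(-) and WT CME(-) extracts no gene was called by edgeR (531 genes, 4.05%, had an unadjusted p under 0.05) and none by DESeq2 (600 unadjusted), and the 15 genes had an adjusted p of 0.997. Against WT CME(-), tCDCA had 71 called genes (0.541%), 10 of the 15 among them: Lif at 1.55, Pf4 at 1.05, Ereg at 0.72, Sectm1b at -1.06, Naaladl1 at -0.98, Prlr at -1.24, Prr15 at -1.18, Slc2a9 at -1.39, Dbp at -1.69 and Acta1 at -2.09. Against the Asbt-/- CME(+) extract 253 genes were called (1.93%), with 14 of the 15 among them and Naaladl1 the exception (-0.6, adjusted p = 0.145). These comparisons share the tCDCA libraries, from which the 15 genes were also chosen, so the counts are a description.

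Within run 2 more genes were called than over both runs. There, where the tCDCA and Asbt-/- CME(-) libraries all carry the label of 200 µM, 80 genes were called in the run's own fit (0.628% of those tested), 44 higher and 36 lower, and all 15 were among them. In run 1, the single tCDCA library differed from the single extract library in the same direction for 15 of 15 genes, mostly by less. All 15 were called from a fit that holds the libraries of both runs, so neither agreement is a separate test. For Dbp (-1.8 ± 0.31 in run 2, -1.68 in run 1), Prr15 (-1.32 ± 0.29 and -1.05) and Slc2a9 (-1.54 ± 0.36 and -1.11) the runs were close. Il1rl1 was at 1.44 ± 0.28 and 0.21, Ereg at 1.12 ± 0.22 and 0.17, Prlr at -1.57 ± 0.24 and -0.3, and Tmigd1 at -1.2 ± 0.2 and -0.01. In a test of the difference between runs, added after the run 2 values were seen, none of the 15 passed (Tmigd1 -1.18 ± 0.37, adjusted p = 0.563; Lif 1.86 ± 0.62, adjusted p = 0.621). Run 1 holds 1 library of each group, whose spread this test assumes to be like that of the other groups, so a p that missed the threshold does not show that the runs were alike. Dose label, run and culture cannot be told apart here.

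**Figure D4:**
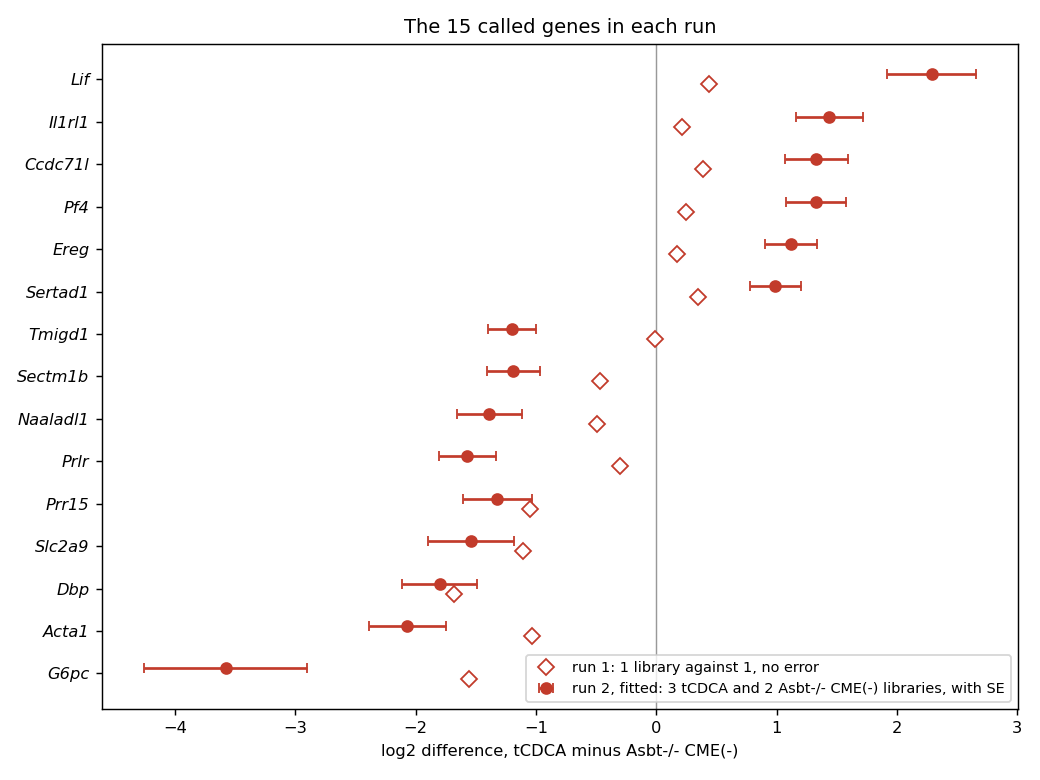
Log2 difference, tCDCA minus Asbt-/- CME(-), of the 15 called genes in run 2 (filled circles with SE, 3 against 2 libraries) and in run 1 (open diamonds, 1 library against 1, no error). All 15 pairs had the same sign, with Dbp at -1.8 and -1.68 and Tmigd1 at -1.2 and -0.01. The genes were called from a fit that holds these same libraries, so the shared sign is a description.

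Genes of inflammation and of the injured epithelium lay mostly on the tCDCA side. Of 25 tested NF-kB and inflammatory genes 1 was called, Lif (0.0457% of all genes were called higher). An unadjusted p under 0.05 was found for 12, all higher with tCDCA (4.54% of all genes). The median of the list was 0.84 against 0 over all genes tested. The neutrophil chemokine genes Cxcl1 (1.16 ± 0.36), Cxcl2 (1.52 ± 0.43), Cxcl3 (1.19 ± 0.39) and Cxcl5 (1.43 ± 0.58), the monocyte chemokine gene Ccl2 (1.09 ± 0.29) and Ptgs2, the inducible cyclooxygenase gene (1.06 ± 0.33), were among the 12. The cytokine gene Il11 was at 170, 67.5, 99 and 48.7 CPM with tCDCA and at 142, 12.7 and 16.1 with the extract (1.5 ± 0.37, adjusted p = 0.159). Its run 1 libraries were high with either additive, and in run 2 alone it was called (2.31 ± 0.36, adjusted p = 0.00188). Nfkbia, the NF-kB inhibitor gene and itself a target, was at 0.03 ± 0.16, and Il1b, the gene of interleukin-1 beta, at 0.2 ± 0.22.

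Of 21 wound-type epithelial genes, which mark epithelium in repair, 1 was called, Ereg (0.0457% of all genes were called higher). At an unadjusted p under 0.05 there were 15 higher and 1 lower (4.54 and 3.76% of all genes), with a median of 0.72. Areg, the gene of amphiregulin, another EGF receptor ligand, was at 150, 250, 278 and 264 CPM with tCDCA and at 160, 110 and 130 with the extract (0.73 ± 0.18, adjusted p = 0.106). The run 1 libraries were alike, and in run 2 alone Areg was called (1.13 ± 0.19, adjusted p = 0.0024). Plaur, the urokinase receptor gene (0.91 ± 0.24), Plau, urokinase itself (0.82 ± 0.23), the annexin genes Anxa1 (1.02 ± 0.31) and Anxa3 (1.05 ± 0.27) and the keratin gene Krt6a (2.3 ± 0.77) were on the same side, and Clu, the gene of clusterin, was on the other (-1.28 ± 0.46). In run 1 the median difference between the single libraries was 0.17 for this list and 0.2 for the inflammatory list, against 0.96 and 1.1 between the group means of run 2.

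Absorptive enterocyte markers lay on the side of the extract, with none called. Of 22 tested, 13 had an unadjusted p under 0.05, all lower with tCDCA (3.76% of all genes), 20 had a negative sign, and the median was -0.55. Against DMSO the list's median was -1.57 with tCDCA and -0.88 with the extract, so that it lay below the solvent with both. There 19 members were called with tCDCA and 4 with the extract (5.68 and 0.952% of all genes). Mgam, the brush border maltase-glucoamylase gene, was at 357, 151, 187 and 133 CPM with tCDCA and at 451, 315 and 305 with the extract (-0.79 ± 0.18, adjusted p = 0.0571). Mep1b, a meprin protease subunit gene, was at 250, 63.1, 83.3 and 51.8 against 295, 150 and 103 CPM (-0.72 ± 0.19, adjusted p = 0.123). Both were lower with tCDCA within each run, and both were called in run 2 alone (adjusted p = 0.0191 and 0.0389). Sis, the sucrase-isomaltase gene, was at -0.83 ± 0.27, Anpep, aminopeptidase N, at -0.75 ± 0.22, Dpp4, dipeptidyl peptidase 4, at -0.56 ± 0.17 and Slc5a1, the sodium-glucose carrier gene, at -0.54 ± 0.19. In run 2 all 22 had a negative difference of means (median -0.89), and in run 1 13 of 22 (median -0.07). In bulk tissue, fewer enterocytes and less RNA per enterocyte cannot be told apart.

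**Figure D5:**
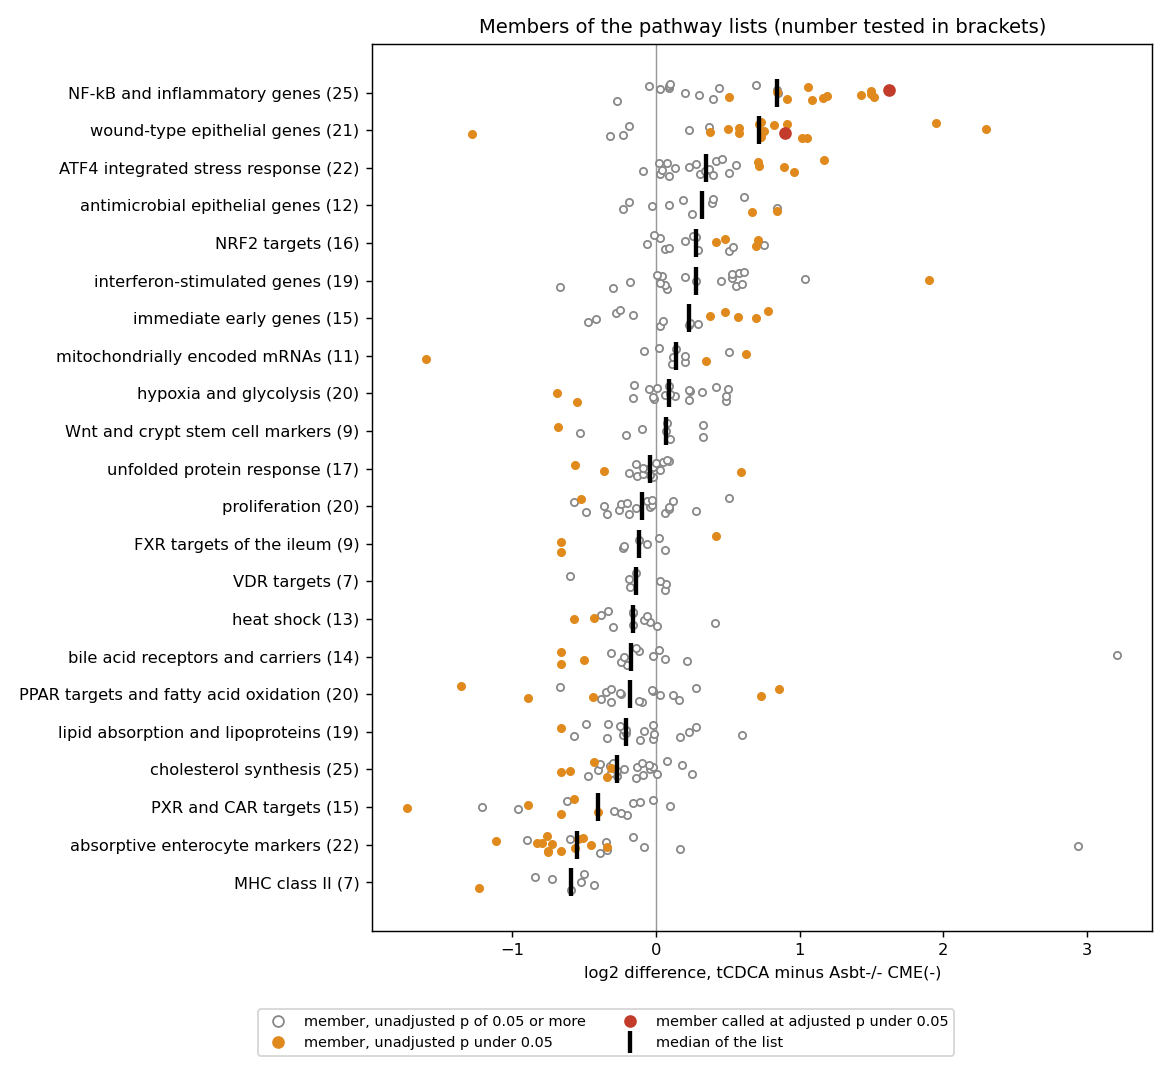
Log2 difference, tCDCA minus Asbt-/- CME(-), of each tested member of the 22 pathway lists, with a bar at the list's median and colour for the unadjusted and adjusted p under 0.05. The medians of the inflammatory (0.84) and wound-type (0.72) lists were the highest and those of the enterocyte (-0.55) and MHC class II (-0.59) lists the lowest, and Lif and Ereg were the only called members.

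Stress genes under ATF4, a transcription factor that responds to amino acid shortage and misfolded protein, leaned to the tCDCA side. Of 22 tested none was called, 5 had an unadjusted p under 0.05, all higher (4.54% of all genes), 21 were positive (6591 of 13125 over all genes) and the median was 0.35. Chac1, the gene of a glutathione-degrading enzyme, was at 61.4, 44.1, 76.8 and 55.3 CPM with tCDCA and at 38.9, 24.2 and 30.2 with the extract (0.96 ± 0.23, adjusted p = 0.106). Trib3, a pseudokinase gene, was at 29.4, 26.8, 52.2 and 21.7 CPM against 20.1, 13.5 and 10.2 (1.17 ± 0.29, adjusted p = 0.115). For both, every tCDCA library lay above every extract library. The median of the 17 unfolded protein response genes was -0.04, with the stress gene Herpud1 at 0.59 ± 0.21 and the chaperone gene Pdia4 at -0.56 ± 0.2. That of the 16 NRF2 targets, which answer oxidants, was 0.28, with 4 higher at an unadjusted p under 0.05 (4.54% of all genes).

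Metabolic lists leaned the other way. None of the 25 genes of cholesterol synthesis was called, 5 had an unadjusted p under 0.05, all lower (3.76% of all genes), and the median was -0.27. Hmgcs1, the gene of the enzyme before HMG-CoA reductase, was at 260, 258, 114 and 240 CPM with tCDCA and at 293, 407 and 336 with the extract (-0.66 ± 0.21, adjusted p = 0.297). Of 15 targets of PXR and CAR, nuclear receptors of foreign compounds, 5 had an unadjusted p under 0.05, all lower (against the same 3.76%), among them the sulfotransferase gene Sult1b1 (-0.57 ± 0.18), the cytochrome P450 gene Cyp2c55 (-1.73 ± 0.6) and Abcc2, a conjugate exporter gene (-0.66 ± 0.24). Their median was -0.4. Among 20 PPAR targets and genes of fatty acid oxidation, 2 were higher and 3 lower at an unadjusted p under 0.05, against 4.54 and 3.76% of all genes (median -0.18), with the pantetheinase gene Vnn1 at -1.36 ± 0.37 and Pdk4, a kinase gene that restrains glucose oxidation, at 0.86 ± 0.37. Abcg2, an exporter of the apical membrane in the list of bile acid receptors and carriers, was at -0.5 ± 0.15 (adjusted p = 0.256).

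The remaining pathway lists held no called member. Medians were 0.32 for 12 antimicrobial epithelial genes, 0.28 for 19 interferon-stimulated genes, 0.23 for 15 immediate early genes, 0.14 for 11 mitochondrially encoded mRNAs, 0.09 for 20 genes of hypoxia and glycolysis and 0.07 for 9 markers of crypt stem cells and Wnt signalling. On the negative side they were -0.1 for 20 proliferation genes, -0.14 for 7 VDR targets, -0.16 for 13 heat shock genes, -0.17 for 14 bile acid receptors and carriers, -0.21 for 19 genes of lipid absorption and lipoproteins and -0.59 for 7 MHC class II genes. In the last, all 7 were negative (6534 of 13125 over all genes). The transactivator gene Ciita (-1.23 ± 0.53) was the 1 with an unadjusted p under 0.05, against 3.76% of all genes lower. The runs went apart here: in run 2 all 7 were negative (median -0.82), and in run 1 4 were positive and 3 negative (median 0.11). Proliferation genes had a median of -0.32 in run 2 and 0.15 in run 1, and the stem cell and Wnt markers one of -0.32 and 0.02. Duox2, the gene of an epithelial peroxide-making oxidase, was at 884, 372, 483 and 291 CPM with tCDCA and at 1030, 129 and 222 with the extract (0.67 ± 0.25, adjusted p = 0.394), and in run 2 alone was called (1.11 ± 0.24, adjusted p = 0.0217).

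Several markers of other cell types were highest in run 1 with either additive. No member of the 13 cell type lists was called. The summed CPM of 5 tested B and plasma cell markers ran from 870 to 5550 with tCDCA and from 1350 to 5780 with the extract, and that of 6 adipocyte and mesothelial markers from 43.6 to 532 and from 18.8 to 358, each with its highest value in run 1. The sums of 10 smooth muscle markers (1290 to 2690 and 1770 to 2630 CPM), 12 fibroblast markers (480 to 910 and 612 to 938) and 11 endothelial markers (119 to 145 and 99.6 to 141) overlapped. These ranges span both runs. For 14 myeloid markers the range was 143 to 426 with tCDCA and 122 to 384 with the extract, and for 7 T and NK cell markers 7.57 to 68.4 and 15.3 to 74.7. The median difference was 0.46 for the myeloid list (0.36 in run 2, 0.04 in run 1) and 0.93 for the adipocyte and mesothelial list (1.27 and 0.69), on the same side as the inflammatory and wound-type lists and, for the adipocyte and mesothelial list, above the median of every pathway list. It was -0.62 for the B and plasma cell list (-0.86 in run 2, where all 5 were negative, and 0.28 in run 1) and -0.53 for the T and NK cell list (-0.92 and -0.01). The myeloid markers were split, with 8 higher and 6 lower with tCDCA (-0.82 to 1.1). At an unadjusted p under 0.05 they held 2 higher and 1 lower (4.54 and 3.76% of all genes). Among them the macrophage receptor gene Mrc1 was at 0.88 ± 0.25 (adjusted p = 0.183). Fabp4, the fatty acid binding protein gene of adipocytes, was at 228, 69.2, 43.6 and 57.2 CPM against 181, 18.1 and 21.2 (0.99 ± 0.33, adjusted p = 0.348), beside Plin1, the lipid droplet gene that defines adipocytes, at 0 to 1.02 CPM in the tCDCA libraries of run 2. The part of these cells in the differences above was not tested.

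No marker of the other epithelial cell types was called. Among 10 goblet cell markers Fcgbp, a mucus protein gene, was at 132, 125, 101 and 101 CPM with tCDCA and at 238, 169 and 156 with the extract, with no overlap (-0.67 ± 0.17, adjusted p = 0.123), while the list's median was -0.02. The median of 9 Paneth cell markers was -0.03, with 7 of 9 negative in run 2 (median -0.24) and 8 of 9 positive in run 1 (median 0.41). It was 0.15 for 15 enteroendocrine markers and -0.2 for 6 tuft cell markers.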

How the data were processed

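Libraries of 3' mRNA tags (QuantSeq V2 with UDI) were made from ileal fragments. The submitters' processing notes name HISAT2, cutadapt, FastQC and Picard with the GRCm39 build. How reads were counted, with which annotation and strand, is not given in the sources used here. Raw counts came as 1 table that the authors deposited, with 57126 gene identifiers, of which 51884 (88.4% of counts) took a symbol from GENCODE M21. Column prefixes were taken as sequencing runs.

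Counts were fitted with edgeR 4.0.16 (R 4.3.3, limma 3.58.1): filterByExpr, TMM, and a robust quasi-likelihood model of 6 groups and run over 21 libraries (common biological coefficient of variation 0.266). P-values were adjusted by Benjamini-Hochberg over 13125 genes, and genes with an adjusted p under 0.05 are called here. Levels are CPM on TMM library sizes. Values of single libraries in run 1 are log2 ratios of CPM + 0.5. The scripts were tested on simulated data. DESeq2 1.42.0, other scalings, filters, sample sets and each library left out were alternatives.

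The members and lists were chosen with earlier results of these data known. Named genes are the FXR genes, up to 10 called genes per direction with the largest change (mean log2 CPM 3 or more), up to 5 called members of lists with several, and up to 2 members of each other list with the smallest p. Further list members were named after their values were seen.

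Same-numbered libraries of the 2 groups deviated together from their group means (r = 0.549, 0.216 and 0.264 for replicates 1, 2 and 4), against 0.211 and 0.222 for unlike numbers within run 2. The numbers share the run, and within run 2 like and unlike numbers gave close values. These correlations therefore do not show a pairing beyond the run. Within a group, libraries correlated at 0.89 to 0.948 across genes, and none was a copy of another. Intervals on counts cover counting error only.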

Additional observations from a re-analysis of the deposited data

Results flagged for a closer look

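In the 4 tCDCA libraries 12 of 87 quantities had a highest or lowest library far from the rest by Dixon's 95% critical value, where chance gives about 1 in 20. In 10 of them replicate 1, the library of run 1, was the highest. Among epithelial genes these were Tmigd1 (388 CPM, next 227) and Mep1b (250, next 83.3). Among genes of immune cells they were Igha (1690, next 380), Cd74 (259, next 164), Cd14 (108, next 35.2) and Gzma (36.9, next 3.92). The others were Tac1, a neuropeptide gene (364, next 69.7), the adipocyte genes Fabp4 (228, next 69.2) and Plin1 (12.5, next 1.02), and the haemoglobin gene Hbb-bt (33.1, next 8.82).

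In run 2, Slc27a4, a fatty acid carrier gene, was highest in replicate 2 (80.8 CPM, next 54.7), and Hmgcs1 was lowest in replicate 3 (114 CPM, next 240), the library with the low share of mitochondrial rRNA.

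Asbt-/- CME(-) replicate 3, which the submitters removed, had Fgf15 at 159 CPM, against at most 10.9 in any DMSO library.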

How the results depend on the processing

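All 15 called genes kept their direction in every alternative that tested them (14 of them were tested in the compared groups alone). The number of calls, 15, was 14 with DESeq2 size factors, 20 with all 24 libraries and 14 without mitochondrial rRNA and the abundant ENSMUSG00000119584 together. It was 0 without scaling factors (917 at an unadjusted p under 0.05; the median of all genes moved by 0.07), 0 without the run term (546 unadjusted), 2 in the compared groups alone, 47 with Asbt-/- CME(-) replicate 3 added, 68 by DESeq2 (14 shared), 78 without a count filter, 80 in run 2 alone and 76 for run 2 within a model of group and run, added after seeing the data. The 2 genes called in the compared groups alone were Dbp and Krt6a, and only Dbp was among the 15. Without tCDCA replicate 2, 5 of the 6 called genes were among the 15, and without replicate 3 it was 3 of 4. With the replicate block the number of calls was 4. Leaving out 1 library gave 0 to 58 (789 unadjusted where it was 0, without Asbt-/- CME(-) replicate 2). The causes were not tested.

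Signs turned for 4 genes. Without the run term Fabp6 and Slc51b were at -0.07 and -0.07, with Asbt-/- CME(-) replicate 3 added at -0.01 and -0.01, and with all 24 libraries at -0.02 and -0.01. Slc51a was at 0.01 without scaling factors, 0.19 in run 2 alone and 0.2 in the run 2 part of the joint model. Leaving out 1 library gave -0.28 to 0.22 for Fabp6, -0.37 to 0.17 for Slc51a, -0.11 to 0.14 for Slc51b and -0.4 to 0.02 for Acta2. Genes of a few CPM rest on few counts in libraries of this depth.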

Other observations

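Relatives of the called genes were looked up after the called genes had been seen, and are given as values. Of 16 tested clock genes, Dbp among them, 12 were lower with tCDCA (6534 of 13125 over all genes), with a median of -0.34. None was called besides Dbp: Nr1d1, a repressor of the clock, was at -0.7 ± 0.2 (adjusted p = 0.178), Per2 at -0.7 ± 0.21 (adjusted p = 0.249) and Arntl, the activator, at 0.34 ± 0.3. Tef, a relative of Dbp, was at -0.01 ± 0.27. All 5 tested EGF receptor ligand genes had a positive difference (6591 of 13125 over all genes), with a median of 0.59. They include Ereg, which prompted the look-up, and Areg, already seen to be higher, and the smallest was Tgfa at 0.13 ± 0.31. Btc, the gene of betacellulin, was at 25.6 to 35 CPM with tCDCA and at 15.7 to 23.8 with the extract, with no overlap (0.59 ± 0.23, adjusted p = 0.439).

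Among 9 genes of the interleukin-6 family and its receptors Il6 was at 1.5 ± 0.44 (adjusted p = 0.267), Lifr, a receptor subunit for Lif, at -0.23 ± 0.4 and Socs3, a target of these cytokines, at -0.01 ± 0.17. Il33, the ligand of the Il1rl1 product, was at 0.84 ± 0.27 (adjusted p = 0.286). Of the platelet genes beside Pf4, Ppbp was at 5.65 to 10.5 CPM with tCDCA and at 0.392 to 5.47 with the extract (1.49 ± 0.61, adjusted p = 0.457). Gp1bb was at 0.05 ± 0.87, and Itga2b, Gp9 and Treml1, at no more than 13 counts in a library, did not enter the test. Beside G6pc, Slc37a4, the glucose-6-phosphate carrier gene, was at -0.45 ± 0.34 and Pck1, of the same pathway, at -0.06 ± 0.82.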
